A study of Mus musculus with 8 samples.

Results

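T and NK cell lineage transcripts were followed in 8 mouse RNA-seq libraries of B cells. The set was a list of 36 gene symbols, found among the 55401 gene identifiers of each deposited count file, and all 36 were present. It holds 10 genes of the T cell receptor complex and its coreceptors, 6 of proximal receptor signaling and adhesion, 4 costimulatory or inhibitory receptors, 6 T lineage transcription factors with the cytokine receptor Il7r, and 9 NK and cytotoxic genes. Libraries came in 4 groups of 2 from C57BL/6 mice: germinal center B cells sorted by FACS from the spleen, and spleen B cells pulled down with biotinylated PanB reagent on SA beads and then activated, each from wild-type (WT) mice and from mice labelled Jmjd1c B KO. KO is used below for knockout. The labels leave out what drives the B cell knockout, which exons it removes, the age of the mice, and the stimulus and time of activation. No label ties a replicate to a mouse of its own. A p-value here therefore covers the spread between 2 libraries of a group, which may be technical.

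The T cell receptor recognizes antigen through its variable chains and signals through the CD3 chains and the zeta chain, whose tails are phosphorylated by Lck and then bind Zap70. CD4 or CD8 joins the receptor at the antigen-presenting cell, and follicular helper T cells, which are CD4 T cells, meet B cells in the germinal center. Receptor gene segments are rearranged in T cells and not in B cells, whereas Cd2 and Tbx21 are also known from mouse B cells.

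The 8 libraries held 8777425 to 11414559 counts on genes. Jmjd1c counted 1850 and 1950 in WT germinal center cells, 1341 and 1330 in KO germinal center cells, 2656 and 2852 in activated WT cells, and 1329 and 1520 in activated KO cells. It was lower in KO, by a log2 fold change of -0.20 (SE 0.04, edgeR adjusted p = 1.66e-05) in germinal center cells and of -0.94 (SE 0.06, edgeR adjusted p = 1.81e-11) in activated cells. B cell defining genes (10 genes, Pax5 among them) summed to 8373 to 10840 CPM over all libraries, where CPM is a gene's count scaled to library size with TMM factors. Germinal center genes (10 genes, Bcl6 among them) summed to 4189 to 4261 CPM in WT and 2460 to 2471 CPM in KO germinal center cells, against 230 to 268 CPM in activated cells.

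Cd3d, Cd3e and Cd3g, the 3 CD3 chain genes, were the reference for the other members below, and their upstream sequences are printed because these neighboring genes were high and low in the same groups. They lie together on chromosome 9, from 44969572 to 45009627 in GRCm38, a span of 40.1 kb, and 1354 bases separate the divergent Cd3g and Cd3d genes. Cd247, which encodes the zeta chain, lies on chromosome 1 and is shown for contrast. Each sequence is the 250 bases before the transcript start in RefSeq (GRCm38.p6), read 5′ to 3′ on the strand of the gene, with E-box letters (CANNTG) in capitals.
Cd3d, chr9:44981536-44981785, plus strand: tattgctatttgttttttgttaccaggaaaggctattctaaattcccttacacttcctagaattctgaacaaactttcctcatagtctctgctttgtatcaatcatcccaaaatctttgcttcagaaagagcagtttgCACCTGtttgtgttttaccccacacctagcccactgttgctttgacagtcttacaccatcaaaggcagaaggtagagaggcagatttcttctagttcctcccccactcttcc
Cd3e, chr9:45009612-45009861, minus strand: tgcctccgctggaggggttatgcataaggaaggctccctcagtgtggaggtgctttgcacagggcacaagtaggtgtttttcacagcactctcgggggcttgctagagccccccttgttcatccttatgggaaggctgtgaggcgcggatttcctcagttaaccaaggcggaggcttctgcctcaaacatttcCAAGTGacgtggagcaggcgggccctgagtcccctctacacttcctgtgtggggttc
Cd3g, chr9:44980432-44980681, minus strand: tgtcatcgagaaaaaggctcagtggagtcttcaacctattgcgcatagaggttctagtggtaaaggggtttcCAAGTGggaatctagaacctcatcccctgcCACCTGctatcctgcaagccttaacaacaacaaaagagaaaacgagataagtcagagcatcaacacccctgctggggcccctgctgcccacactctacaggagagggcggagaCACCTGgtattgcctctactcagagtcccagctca
Cd247, chr1:165788431-165788680, plus strand: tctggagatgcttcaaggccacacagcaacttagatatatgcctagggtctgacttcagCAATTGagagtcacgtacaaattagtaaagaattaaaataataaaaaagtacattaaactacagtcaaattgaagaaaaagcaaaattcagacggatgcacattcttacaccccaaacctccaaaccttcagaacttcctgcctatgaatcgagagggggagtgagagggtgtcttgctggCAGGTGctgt
E-box letters occurred 1 time upstream of Cd3d, 1 time upstream of Cd3e, 3 times upstream of Cd3g and 2 times upstream of Cd247, and at least 1 match was found in 66.2% of 32851 mouse promoters of this length. AGATAA, the letters of a GATA motif, occurred 1 time upstream of Cd3g and in 9.99% of all promoters. TGTGGT, the letters of a Runx motif, had no match in these 4 windows and was found in 14.1% of all promoters. The TATA box letters TATAAA had no match either, and 12.4% of all promoters hold them. Both strands were searched, and the same letters could count for more than 1 motif. A match describes letters only.

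Members fell into a few abundant genes and many near the detection limit. Levels of different genes are compared per kb of exon length. In WT germinal center cells, Cd2 stood at 41.6 CPM per kb, Lck at 31.3, Cd247 at 4.33, Tbx21 at 3.66, Foxp3 at 3.0 and Tox at 2.93, while Cd3e was at 0 and Cd3d and Cd3g were at 0.0833 and 0.0623 CPM per kb. In activated WT cells, Cd2 (67.6 CPM per kb) and Lck (15.6) again led, followed by Cd247 (10.8), Tcf7 (4.10) and Trbc2 (4.01), and the CD3 chains stood at 0.519 to 0.585 CPM per kb. A level of 0 in a library of this depth limits what can be said: 3 counts over the 2 libraries of a group correspond to 0.148 to 0.181 CPM, depending on the group. In bulk RNA, fewer cells of a type and less RNA per cell cannot be told apart.

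**Figure D1:**
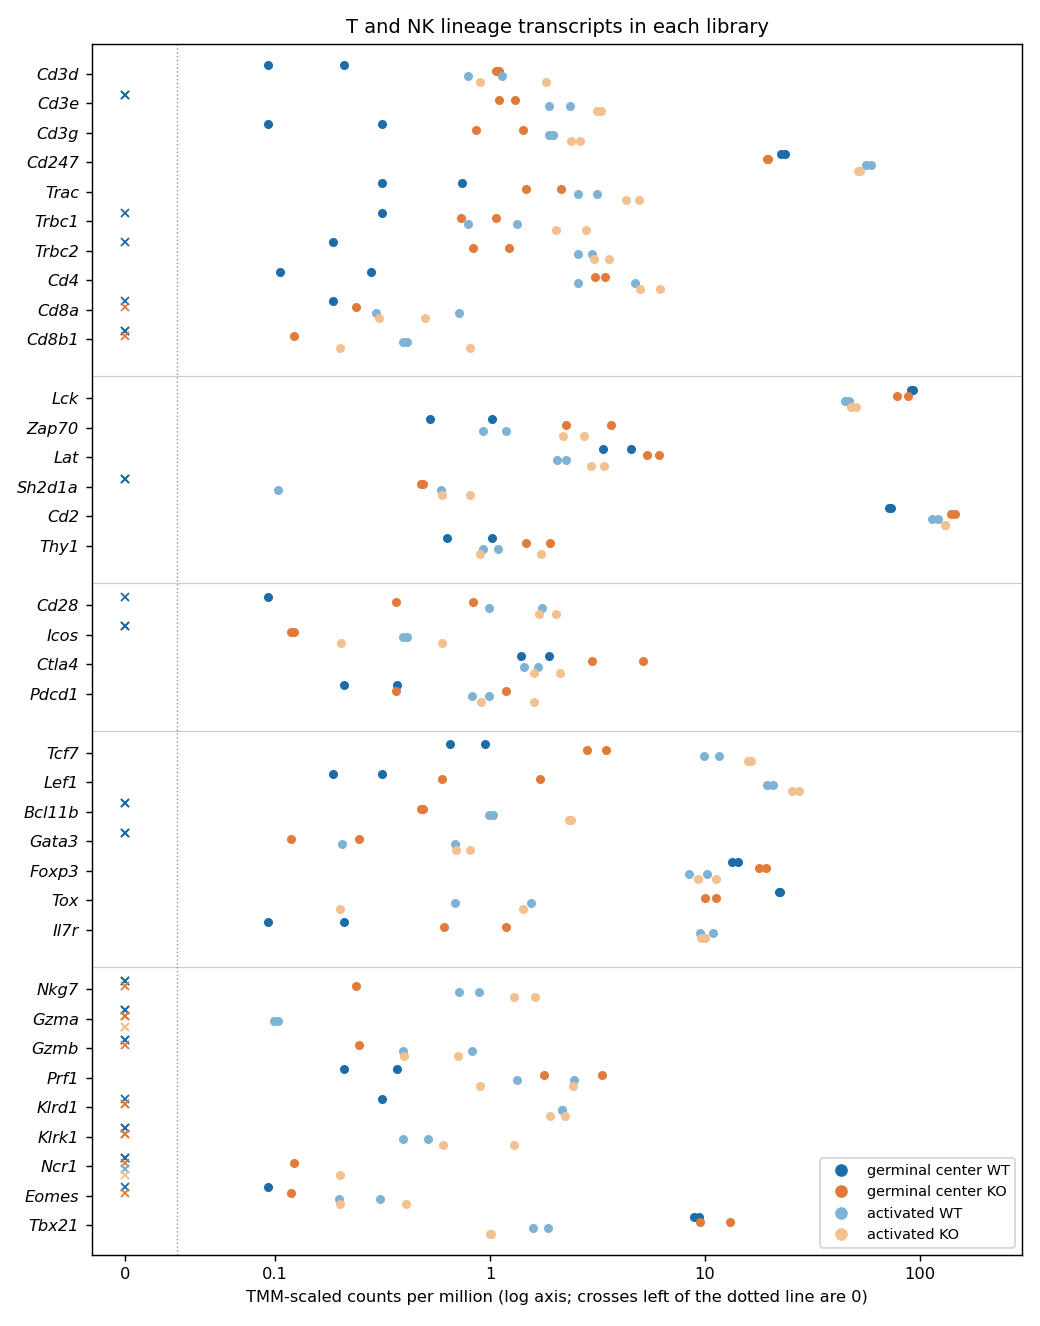
TMM-scaled CPM (log axis) of the 36 members in each of the 8 libraries, grouped by role from receptor complex at the top to NK and cytotoxic genes at the bottom; each point is 1 library, and crosses left of the dotted line are values of 0. Lck, Cd2, Cd247 and Foxp3 lay above 5 CPM in every library, while Cd3e was at 0 in both WT germinal center libraries.

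The 4 groups gave 4 pairwise comparisons and the test of the difference between the 2 KO effects, all with edgeR's quasi-likelihood test and Benjamini-Hochberg adjustment over all genes tested, with an adjusted p under 0.05 taken as passing. Comparisons share libraries, so their results are given side by side and not as independent evidence of each other. In germinal center cells, 14 of the 36 members reached the count filter, of which 8 were higher in KO, 1 was lower and 5 did not pass, where 50.2% of all 13350 genes tested passed (25.1% higher and 25.1% lower). Of these 14, 6 (Trac, Cd4, Zap70, Thy1, Tcf7 and Prf1) met the count minimum in KO only, so the count of 8 is a description. In activated cells, 25 members were tested and 2 were higher in KO, 0 were lower and 23 did not pass, where 6.27% of 14110 genes passed (4.85% higher, 1.42% lower). Of these 25, 5 met the count minimum in KO only and 2 in WT only. At an unadjusted p under 0.05, edgeR placed 8 of these members higher and 0 lower, and DESeq2 4 higher and 0 lower. Between WT germinal center and WT activated cells, 5 of 20 tested members were higher in germinal center cells, 14 were lower and 1 did not pass, where 82.2% of 14426 genes passed (40.3% higher, 41.8% lower). Between KO germinal center and KO activated cells, 6 of 25 were higher in germinal center cells, 14 were lower and 5 did not pass, where 78.7% of 14307 genes passed (39.2% higher, 39.5% lower). In these last 2 comparisons 12 and 10 of the tested members met the count minimum only in activated cells. Median log2 fold changes of tested members were 1.0 for the KO in germinal center cells and 0.40 for the KO in activated cells, against -0.0044 and 0.00062 over all genes tested. They were -2.95 between WT cell types (-2.72 with genes absent from a group set to their bound) and -1.14 between KO cell types, against -0.034 and -0.017 over all genes. All 4 medians hold members that entered the test only through the group where they are high, so they describe the tested members and nothing is read from their distance to the medians of all genes.

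The CD3 chains were all but absent from WT germinal center cells and were detected in every other library. Cd3e, which pairs with both of the other CD3 chains, counted 0 and 0 in the WT germinal center libraries, 9 and 11 in KO germinal center libraries, 23 and 19 in activated WT libraries, and 31 and 33 in activated KO libraries. WT germinal center cells were the low group without overlap, and KO was at least 8.17-fold higher against a floor of 3 counts over the WT group. Cd3g counted 3 and 1 in WT germinal center and 7 and 12 in KO germinal center libraries. Activated libraries held 19 and 19 in WT and 26 and 24 in KO. Cd3d counted 2 and 1 in WT germinal center and 9 and 9 in KO germinal center libraries. In activated cells the counts were 11 and 8 in WT and 18 and 9 in KO. Both were again lowest in WT germinal center cells, without overlap with KO. None of the 3 chains reached the count filter in the germinal center KO comparison; without the filter all 3 passed, Cd3d with a log2 fold change of 2.78 (SE 0.84, edgeR adjusted p = 0.00451) and Cd3g with 2.47 (SE 0.77, edgeR adjusted p = 0.00607).

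Summed over the 3 chains, the counts were 5 and 2 in WT germinal center, 25 and 32 in KO germinal center, 53 and 46 in activated WT, and 75 and 66 in activated KO libraries. These sums equal 0.355 ± 0.240 CPM, 3.43 ± 0.530 CPM, 4.99 ± 0.647 CPM and 7.08 ± 0.714 CPM (mean ± SD, n = 2 libraries here and below). The ratio of KO to WT was 9.98 in germinal center cells (exact 95% counting interval 4.54 to 25.9) and 1.42 in activated cells (1.09 to 1.86). Germinal center cells held 0.0691 times the level of activated cells in WT (0.0271 to 0.148) and 0.486 times in KO (0.351 to 0.665). Such intervals cover counting error only, not the spread between libraries. Between KO cell types Cd3e was lower in germinal center cells, by -1.42 (SE 0.36, edgeR adjusted p = 0.000906). Cd3g was lower by -1.14 (SE 0.39, edgeR adjusted p = 0.0104), a call lost by DESeq2 (adjusted p 0.106). That call was also lost without KO germinal center replicate 1, at a log2 fold change of -0.80, and without activated KO replicate 1, at -1.07. In activated cells, no chain passed in KO against WT: Cd3e had a log2 fold change of 0.61 (SE 0.30, edgeR adjusted p = 0.288).

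Constant genes of the receptor followed the same order of groups. Trac, the alpha chain constant gene, counted 3 and 8 in WT germinal center and 12 and 18 in KO germinal center libraries. The activated WT libraries held 25 and 32 and the activated KO libraries 49 and 43. It was higher in KO germinal center cells, by a log2 fold change of 1.73 (SE 0.52, edgeR adjusted p = 0.00223), and lower in WT germinal center than in WT activated cells, by -2.41 (SE 0.44, edgeR adjusted p = 2.92e-07). Between KO cell types it was lower by -1.36 (SE 0.31, edgeR adjusted p = 0.000277). The KO call was lost without KO replicate 2 (adjusted p 0.126), without WT replicate 1 (0.105) and by DESeq2 (0.0811), over a range of 0.00216 to 0.126. Trbc1, a beta chain constant gene, counted 3 and 0 in WT germinal center and 6 and 9 in KO germinal center libraries. Counts in activated cells were 13 and 8 (WT) and 20 and 28 (KO). Trbc2, the other beta chain constant gene, counted 0 and 2, 10 and 7, 29 and 26, and 30 and 36 in the same order of groups. Each was lowest in WT germinal center cells without overlap, but the genes are near-identical copies, and how reads were split between them is uncertain. Trbc2 was lower in germinal center than in activated cells, by -4.68 (SE 0.64, edgeR adjusted p = 1.19e-11) in WT and by -1.69 (SE 0.38, edgeR adjusted p = 0.000219) in KO. Trbc1 was lower between KO cell types, by -1.41 (SE 0.42, edgeR adjusted p = 0.00338), a call lost without KO germinal center replicate 1 (0.0628), without activated KO replicate 2 (0.0632) and by DESeq2 (0.0583), over a range of 0.003 to 0.0632.

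Rearranging segments gave the same picture at lower counts. Of 178 variable segments listed for the receptor chains, 1 and 1 were detected in WT germinal center, 11 and 10 in KO germinal center, 19 and 21 in activated WT, and 33 and 28 in activated KO libraries. Their summed counts were 1 and 1, 15 and 13, 34 and 27, and 52 and 36 in that order. Groups differed without overlap, and the ratio of KO to WT was 17.2 in germinal center cells (exact 95% counting interval 4.33 to 149) and 1.44 in activated cells (1.03 to 2.03). The 3 constant genes, summed, had ratios of 4.75 (2.71 to 8.82) and 1.54 (1.24 to 1.94).

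**Figure D2:**
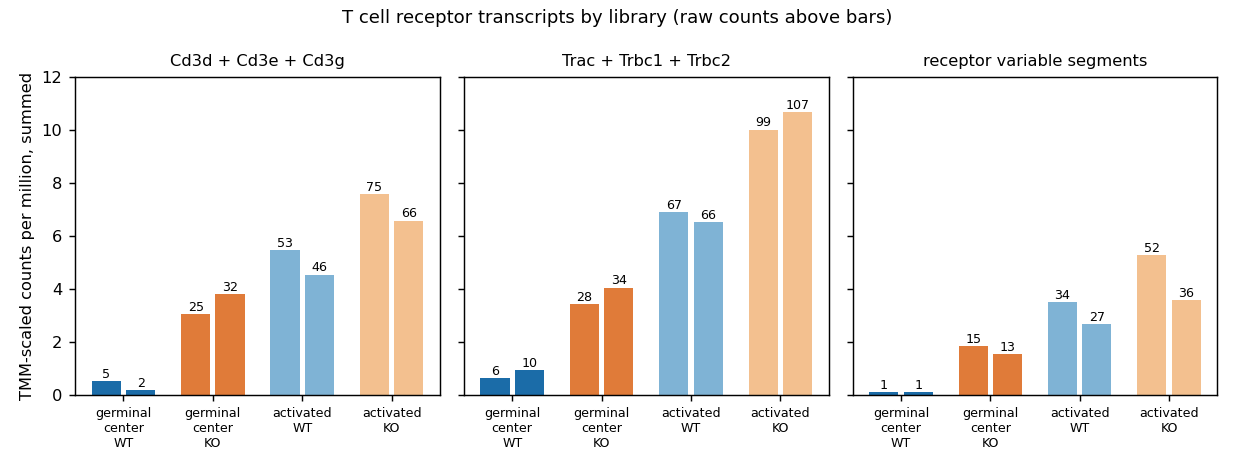
Bars give the summed TMM-scaled CPM in each library of the 3 CD3 chain genes (left), the 3 receptor constant genes (middle) and the receptor variable segments (right), with raw counts above the bars. All 3 sums were lowest in WT germinal center libraries, with 5 and 2, 6 and 10, and 1 and 1 counts.

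Of the coreceptors, Cd4 was detected above Cd8a and Cd8b1 in every group but WT germinal center cells, where all 3 were at or near 0. Cd4, the coreceptor of helper T cells, counted 1 and 3 in WT germinal center and 28 and 26 in KO germinal center libraries. After activation WT libraries held 25 and 48 and KO libraries 61 and 50. WT germinal center cells (0.191 ± 0.122 CPM) did not overlap KO (3.26 ± 0.234 CPM). Cd4 had the largest log2 fold change of the 14 members tested there, 3.97 (SE 0.56, edgeR adjusted p = 7.19e-12), which passed under every alternative tried. It met the count minimum in KO only, so this rank is a description. Cd4 was lower in germinal center than in activated cells, by -4.17 (SE 0.53, edgeR adjusted p = 4.78e-13) in WT and -0.79 (SE 0.26, edgeR adjusted p = 0.00749) in KO. The KO call was lost without KO germinal center replicate 2 (0.058), without activated KO replicate 1 (0.077) and by DESeq2 (0.0776), over a range of 0.00453 to 0.0776. In activated cells the KO difference of 0.61 (SE 0.26, edgeR adjusted p = 0.195) did not pass; without activated WT replicate 2, the higher of the 2 WT libraries, it was 1.13 with an adjusted p of 0.0229 (range over alternatives 0.0229 to 0.844). Cd8a, a coreceptor chain of cytotoxic T cells, counted 0 and 2 in WT germinal center and 0 and 2 in KO germinal center libraries. Activated libraries held 7 and 3 in WT and 3 and 5 in KO. Its partner Cd8b1 counted 0 and 0, 1 and 0, 4 and 4, and 8 and 2. Neither reached the count filter in any comparison, and the Cd8a ratio of KO to WT in germinal center cells, 1.23, had an exact 95% counting interval of 0.0888 to 16.9. Per kb of exon, KO germinal center cells held 0.808 CPM of Cd4, 0.0327 of Cd8a and 0.0412 of Cd8b1, and WT germinal center cells 0.0475, 0.0255 and 0. Activated WT cells held 0.906, 0.140 and 0.272 CPM per kb, and activated KO cells 1.38, 0.110 and 0.340.

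Cd247 did not follow the CD3 chains. It counted 224 and 244 in WT germinal center and 159 and 165 in KO germinal center libraries. In activated cells the counts were 574 and 572 in WT and 520 and 518 in KO. KO was below WT in each cell type without overlap, but neither difference passed, at -0.22 (SE 0.12, edgeR adjusted p = 0.105) in germinal center and -0.13 (SE 0.07, edgeR adjusted p = 0.353) in activated cells. Germinal center cells were lower than activated cells, by -1.35 (SE 0.09, edgeR adjusted p = 2.36e-34) in WT and -1.43 (SE 0.10, edgeR adjusted p = 5.1e-14) in KO. In GENCODE M21, 3007 of the 5329 exon bases of Cd247 (56.4%) lie opposite exons of Pou2f1, a gene for an octamer-binding transcription factor. Whether counting used strand is not stated in the labels or headers, so reads of these 2 genes may not be separated. Pou2f1 had log2 fold changes of -0.15 and -0.12 for the KO in germinal center and activated cells and of -1.22 and -1.24 between cell types in WT and KO, and Cd247 counts were 0.281 to 0.332 times Pou2f1 counts in all 8 libraries. The part of Pou2f1 reads in the Cd247 counts was not tested.

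**Figure D3:**
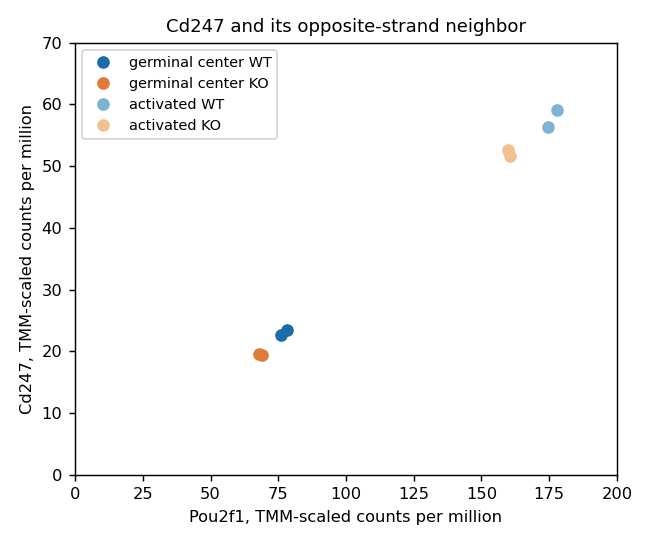
TMM-scaled CPM of Cd247 against that of Pou2f1, whose exons overlap it on the opposite strand; each point is 1 library. The 8 libraries lie near 1 line, with Cd247 at 0.281 to 0.332 times the Pou2f1 count.

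Among signaling and adhesion genes, Lck and Cd2 were abundant and the other 4 were scarce. Lck, the kinase that starts receptor signaling, counted 865 and 998 in WT germinal center and 717 and 656 in KO germinal center libraries. The activated WT libraries held 435 and 473 and the activated KO libraries 497 and 479. Germinal center cells were the high groups, by 0.97 (SE 0.07, edgeR adjusted p = 1.06e-30) in WT and 0.74 (SE 0.07, edgeR adjusted p = 2.31e-10) in KO, the opposite direction to the CD3 chains. Its KO difference did not pass in germinal center cells, at -0.13 (SE 0.06, edgeR adjusted p = 0.0531); without KO replicate 1 it was -0.21 with an adjusted p of 0.0165, and with the replicate number as a block the adjusted p was 0.0479 (range over alternatives 0.0165 to 0.609). Cd2, an adhesion receptor of T and B cells, counted 681 and 792 in WT germinal center and 1138 and 1219 in KO germinal center libraries. Counts in activated cells were 1178 and 1159 (WT) and 1300 and 1315 (KO). It rose in KO germinal center cells, from 72.4 ± 1.36 to 142 ± 4.15 CPM, a log2 fold change of 0.98 (SE 0.06, edgeR adjusted p = 1.83e-67) that passed under every alternative tried. WT germinal center cells were the low group, below activated WT cells by -0.73 (SE 0.06, edgeR adjusted p = 1.05e-24), while KO germinal center and KO activated cells did not differ past the threshold (0.10, SE 0.05, edgeR adjusted p = 0.0769), though they did without KO germinal center replicate 1 (0.16, adjusted p 0.0497, range over alternatives 0.0497 to 0.318). The KO difference of 0.17 in activated cells (SE 0.06, edgeR adjusted p = 0.0944) passed with the replicate number as a block (0.0333) and in 1 fit over all libraries (0.0361), over a range of 0.0333 to 0.601.

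Zap70, the kinase that binds the phosphorylated receptor, counted 5 and 11 in WT germinal center and 30 and 19 in KO germinal center libraries. After activation WT libraries held 9 and 12 and KO libraries 27 and 22. KO was above WT without overlap in both cell types, and the difference passed in germinal center cells, at 1.91 (SE 0.42, edgeR adjusted p = 2.63e-05), and not in activated cells, at 1.22 (SE 0.38, edgeR adjusted p = 0.0582, or 0.0246 with the replicate number as a block; range over alternatives 0.0246 to 0.545). Between those 2 effects the difference was 0.68 (SE 0.63, edgeR adjusted p = 0.457). Lat, the adaptor that Zap70 phosphorylates, counted 32 and 49 in WT germinal center and 50 and 45 in KO germinal center libraries. Activated libraries held 20 and 23 in WT and 29 and 34 in KO. WT and KO germinal center counts overlapped, though scaled levels did not (3.95 ± 0.836 and 5.73 ± 0.538 CPM). Lat was higher in germinal center than in activated cells, by 0.85 (SE 0.30, edgeR adjusted p = 0.00688) in WT and 0.84 (SE 0.26, edgeR adjusted p = 0.00394) in KO. The WT call was lost without germinal center WT replicate 2 (adjusted p 0.139), without activated WT replicate 1 (0.0556) and by DESeq2 (0.103), over a range of 0.00459 to 0.139. The KO call was lost by DESeq2 (0.0595, range 0.00333 to 0.0595). The difference between KO and WT germinal center cells (0.54, SE 0.25, edgeR adjusted p = 0.056) passed without WT replicate 2 (0.0471, range 0.0471 to 0.335). Thy1, a T cell surface glycoprotein, ran from 6 to 17 counts over the 8 libraries and passed in no comparison. Sh2d1a, the SAP adaptor of T and NK cells, was listed at 0 in both WT germinal center libraries and at 1 to 8 counts elsewhere, and 26.6% of its exon bases lie opposite Tenm1, which had at most 1 count in a library.

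Costimulatory and inhibitory receptors were scarce. Ctla4, an inhibitory receptor of activated and regulatory T cells, counted 18 and 15 in WT germinal center and 42 and 25 in KO germinal center libraries. In activated cells the counts were 14 and 17 in WT and 21 and 16 in KO. KO germinal center cells were the high group without overlap, at 1.32 above WT (SE 0.34, edgeR adjusted p = 0.000283) and 1.10 above KO activated cells (SE 0.33, edgeR adjusted p = 0.00389). Both calls were lost without KO germinal center replicate 1, which held the 42 counts, at adjusted p of 0.125 (range 0.000122 to 0.125) and 0.166 (range 0.00119 to 0.166). The second was also lost with no count filter (0.0634) and by DESeq2 (0.0528). Cd28, the main costimulatory receptor of T cells, counted 0 and 1 in WT germinal center and 3 and 7 in KO germinal center libraries. The activated WT libraries held 17 and 10 and the activated KO libraries 20 and 17. It was lower in germinal center than in activated cells, by -4.50 (SE 0.85, edgeR adjusted p = 5.11e-07) in WT and -1.61 (SE 0.49, edgeR adjusted p = 0.00384) in KO, the KO call lost without KO germinal center replicate 1 (0.11) and by DESeq2 (0.0661), over a range of 0.00344 to 0.11. Icos, a costimulatory receptor of follicular helper T cells, ran from 0 to 6 counts and reached the count filter in no comparison. Pdcd1, which encodes PD-1, ran from 2 to 16 counts and did not pass in the 2 tests it entered. With no count filter, both were lower in WT germinal center than in WT activated cells (edgeR adjusted p = 0.0248 for Icos and 0.0488 for Pdcd1).

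**Figure D4:**
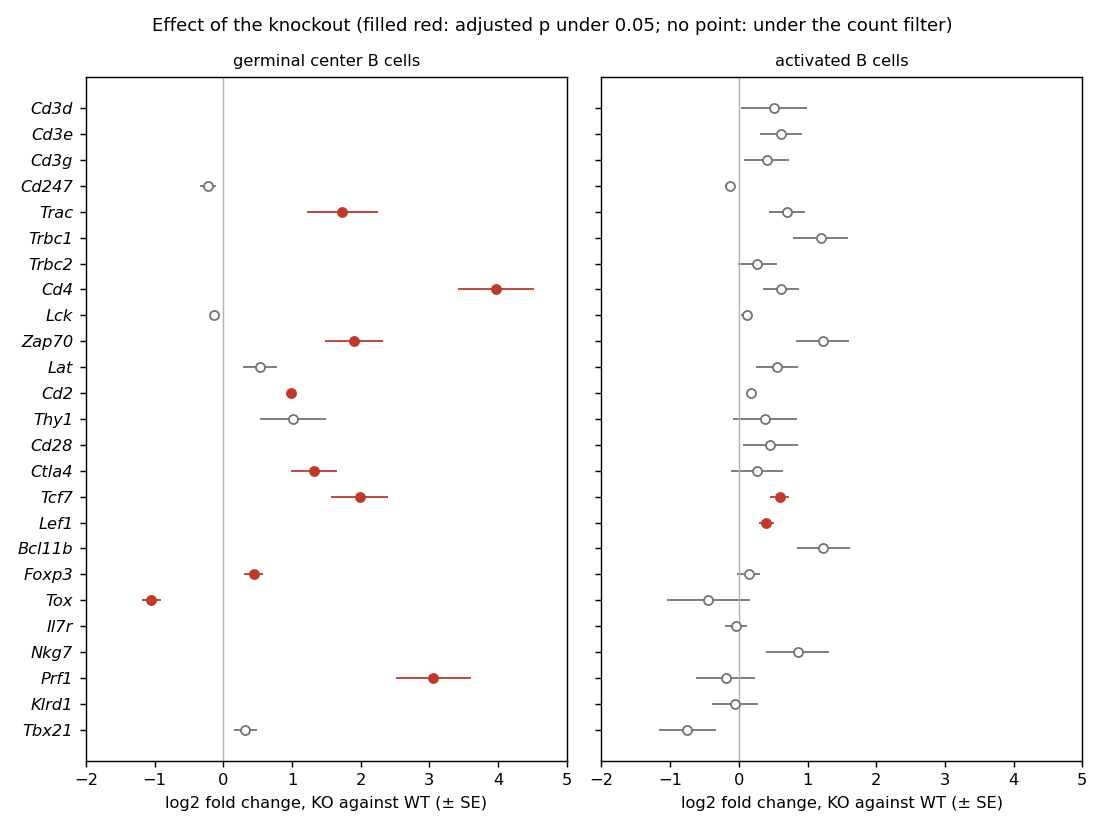
Log2 fold changes of KO against WT (point) with their SE (bar) for members that reached the count filter, in germinal center cells (left, 14 members) and activated cells (right, 25 members); filled red points passed at an adjusted p under 0.05. In germinal center cells 8 points passed to the right of 0 and Tox to the left, and in activated cells Tcf7 and Lef1 passed.

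Among the transcription factors, Tcf7 and Lef1 were the members that rose in KO activated cells. Tcf7, which encodes the factor TCF1 of early and memory T cells, counted 9 and 7 in WT germinal center and 23 and 29 in KO germinal center libraries. Counts in activated cells were 96 and 118 (WT) and 162 and 159 (KO). KO lay above WT without overlap in both cell types, by 1.99 (SE 0.42, edgeR adjusted p = 8.18e-06) in germinal center and 0.59 (SE 0.14, edgeR adjusted p = 0.00785) in activated cells. Lef1, its relative in the same family, counted 3 and 2 in WT germinal center and 14 and 5 in KO germinal center libraries. After activation WT libraries held 190 and 210 and KO libraries 271 and 254. It rose in KO activated cells, by 0.40 (SE 0.11, edgeR adjusted p = 0.0192), and was lower in germinal center than in activated cells, by -6.31 (SE 0.31, edgeR adjusted p = 4e-49) in WT and -4.52 (SE 0.24, edgeR adjusted p = 1.51e-16) in KO. The activated call of Tcf7 was lost without activated WT replicate 1 (adjusted p 0.08), with no count filter (0.0547) and by DESeq2 (0.18), over a range of 0.00114 to 0.18. That of Lef1 was lost under the same alternatives (0.0896, 0.0963 and 0.342) and without activated KO replicate 1 (0.17), over a range of 0.00505 to 0.342. An antisense transcript, Lef1os1, overlaps 13.8% of the Lef1 exon bases and counted 38 to 47 in activated libraries.

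Il7r, the interleukin-7 receptor alpha chain of naive and memory T cells, counted 2 and 1 in WT germinal center and 5 and 10 in KO germinal center libraries. Activated libraries held 92 and 110 in WT and 95 and 100 in KO. Activated cells were the high groups without overlap, and germinal center cells were lower by -6.02 (SE 0.41, edgeR adjusted p = 6.53e-32) in WT and -3.43 (SE 0.31, edgeR adjusted p = 4.06e-11) in KO, while activated KO and WT counts overlapped. Bcl11b, a factor that commits progenitors to the T lineage, counted 0 and 0 in WT germinal center and 4 and 4 in KO germinal center libraries. In activated cells the counts were 10 and 10 in WT and 23 and 24 in KO. Each step between groups was free of overlap, KO germinal center cells were at least 3.27-fold above the WT floor, and the activated difference of 1.23 (SE 0.39, edgeR adjusted p = 0.0577) passed with the replicate number as a block (0.0266, range over alternatives 0.0266 to 0.554). Gata3, the T helper type 2 factor, was listed at 0 in both WT germinal center libraries and at 1 to 8 counts elsewhere.

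Foxp3 and Tox ran against this order and were highest in germinal center cells. Foxp3, the lineage factor of regulatory T cells, counted 127 and 153 in WT germinal center and 158 and 150 in KO germinal center libraries. The activated WT libraries held 82 and 104 and the activated KO libraries 111 and 93. Counts of WT and KO germinal center libraries overlapped, but scaled levels did not (13.8 ± 0.601 and 18.6 ± 1.04 CPM), and KO was higher by 0.44 (SE 0.14, edgeR adjusted p = 0.00313), a call lost by DESeq2 (0.0791, range over alternatives 0.00281 to 0.0791). Germinal center cells were above activated cells, by 0.53 (SE 0.16, edgeR adjusted p = 0.00123) in WT and 0.85 (SE 0.15, edgeR adjusted p = 7.42e-06) in KO. The neighbors that overlap 18.7% of its exon bases on the opposite strand had at most 27 counts in a library, and Flicr, which overlaps 18.6% on the same strand, at most 7. Tox, an HMG-box factor needed for CD4 T cell development, counted 214 and 239 in WT germinal center and 82 and 95 in KO germinal center libraries. Counts in activated cells were 15 and 7 (WT) and 14 and 2 (KO). It fell in KO germinal center cells, from 22.3 ± 0.220 to 10.7 ± 0.902 CPM (-1.05, SE 0.14, edgeR adjusted p = 5.85e-13), the only member to pass as lower there. Tox was higher in germinal center than in activated cells, by 4.29 (SE 0.23, edgeR adjusted p = 8.51e-45) in WT and 3.70 (SE 0.35, edgeR adjusted p = 1.09e-10) in KO.

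Most NK and cytotoxic genes were near 0 in germinal center cells, with Tbx21 in both genotypes and Prf1 in KO as exceptions. Tbx21, which encodes the factor T-bet of NK, type 1 helper and some B cells, counted 89 and 96 in WT germinal center and 107 and 80 in KO germinal center libraries. After activation WT libraries held 18 and 16 and KO libraries 10 and 10. Germinal center cells were the high groups, by 2.37 (SE 0.26, edgeR adjusted p = 1.37e-16) in WT and 3.46 (SE 0.29, edgeR adjusted p = 1.03e-11) in KO, and KO overlapped WT in germinal center counts (0.32, SE 0.17, edgeR adjusted p = 0.104). Without KO replicate 2 that difference was 0.53 with an adjusted p of 0.0198 (range over alternatives 0.0198 to 0.795). Prf1, the pore-forming perforin, counted 2 and 4 in WT germinal center and 27 and 15 in KO germinal center libraries. Activated libraries held 13 and 25 in WT and 24 and 9 in KO. KO germinal center cells lay above WT without overlap, by 3.06 (SE 0.54, edgeR adjusted p = 9.87e-08), a call kept under every alternative tried, while activated libraries overlapped. WT germinal center cells were below WT activated cells, by -2.67 (SE 0.55, edgeR adjusted p = 4.21e-06).

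Klrd1, the CD94 receptor chain of NK cells, counted 3 and 0 in WT germinal center and 0 and 0 in KO germinal center libraries. In activated cells the counts were 21 and 22 in WT and 22 and 19 in KO. Activated cells were the high groups without overlap. WT germinal center cells were lower than WT activated cells, by -3.79 (SE 0.62, edgeR adjusted p = 1.19e-08), and KO germinal center cells held no count. Nkg7, a granule membrane protein of cytotoxic cells, counted 0 and 0 in WT germinal center and 0 and 2 in KO germinal center libraries. The activated WT libraries held 7 and 9 and the activated KO libraries 16 and 13. It was lower in KO germinal center than in KO activated cells, by -3.46 (SE 0.75, edgeR adjusted p = 0.000139). Ncr1, the NKp46 receptor that marks NK cells, counted 0 and 0 in WT germinal center and 1 and 0 in KO germinal center libraries. Counts in activated cells were 0 and 0 (WT) and 0 and 2 (KO). Klrk1, which encodes NKG2D, was at 0 in all 4 germinal center libraries and at 4 to 13 counts in activated ones. Granzyme genes Gzma and Gzmb ran from 0 to 1 and from 0 to 8 counts over the 8 libraries, and the T-box factor Eomes from 0 to 4. None of these 5 genes reached the count filter in any comparison.

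Relative to the CD3 chains, members ranged from ratios that varied little between groups to ratios that varied widely. Members without a count in some group, Bcl11b and Klrd1 among them, have no range. For each group, the counts of a member were divided by the summed counts of Cd3d, Cd3e and Cd3g, 7 in WT germinal center, 57 in KO germinal center, 99 in activated WT and 141 in activated KO cells. Ratios in WT germinal center cells rest on 5 and 2 CD3 counts in the 2 libraries, so they are imprecise. Cd4 stood at 0.571, 0.947, 0.737 and 0.787 counts per CD3 count in that order of groups. Single libraries gave Cd4 ratios of 0.2 and 1.5 in WT germinal center, 1.12 and 0.813 in KO germinal center, 0.472 and 1.04 in activated WT, and 0.813 and 0.758 in activated KO cells, so its group range of 1.66-fold does not hold for WT germinal center libraries taken singly. Trac gave 0.6 and 4.0 in the WT germinal center libraries and 0.472 to 0.696 in the other 6, and Trbc2 gave 0 and 1.0 against 0.219 to 0.565. Over the 4 groups Cd28 spanned 1.91-fold, Trbc2 1.94-fold, Trbc1 2.02-fold, Tcf7 2.51-fold, Trac 2.99-fold and Prf1 3.66-fold. Wider ranges were found for Zap70 (10.8-fold), Cd2 (11.3-fold), Cd247 (11.8-fold), Thy1 (13.2-fold), Ctla4 (18.0-fold), Lat (26.6-fold), Foxp3 (27.6-fold) and Lck (38.4-fold), each highest in WT germinal center cells. Lck stood at 173 and 499 in the WT germinal center libraries and at 20.5 to 28.7 in KO germinal center libraries, against 6.63 to 10.3 in activated ones. Tbx21 (26.4, 3.28, 0.343 and 0.142) and Tox (64.7, 3.11, 0.222 and 0.113) had the widest ranges, 186-fold and 570-fold. Lef1 and Il7r varied the other way, at 0.714 and 0.333 in germinal center and 4.04 and 3.72 in activated cells for Lef1, and 0.429, 0.263, 2.04 and 1.38 for Il7r.

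**Figure D5:**
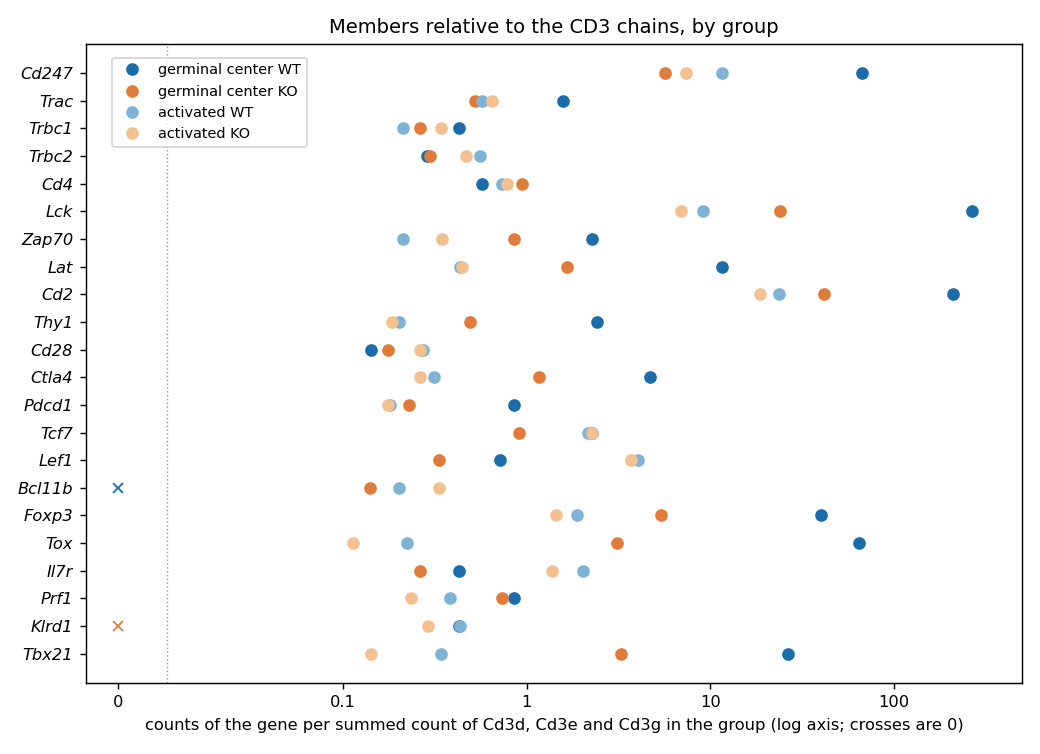
Counts of each member per summed CD3 chain count (log axis), 1 point per group, for members outside the CD3 chains with at least 50 counts over the 8 libraries; crosses are 0. Cd4, Trbc2 and Cd28 had the narrowest ranges shown, while Lck, Cd2, Foxp3, Tbx21 and Tox were highest in WT germinal center cells.

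KO effects in the 2 cell types differed for 9 of 26 tested members, all with the more positive effect in germinal center cells, where 31.2% of 14992 genes passed that test (17.5% higher, 13.8% lower). In the other direction 0 passed, with 1 at an unadjusted p under 0.05 by edgeR and 0 by DESeq2. Cd4 differed by 3.36 (SE 0.66, edgeR adjusted p = 1.71e-05), Prf1 by 3.25 (SE 0.74, edgeR adjusted p = 0.0002) and Cd2 by 0.81 (SE 0.08, edgeR adjusted p = 6.8e-15). Of the other 6, Cd3e had no count in WT germinal center cells, so its fitted size is no measure, and Cd3g, Trbc2, Tcf7, Lef1 and Il7r lost the call under some alternatives. Trac (1.03, SE 0.60, edgeR adjusted p = 0.195), Zap70 (0.457), Ctla4 (1.06, SE 0.54, edgeR adjusted p = 0.132), Foxp3 (0.30, SE 0.21, edgeR adjusted p = 0.307) and Tox (-0.61, SE 0.55, edgeR adjusted p = 0.443) passed in germinal center and not in activated cells, but their effects were not shown to differ.

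Further T cell surface and signaling genes gave 9 higher, 3 lower and 4 not passing of 16 tested (27 listed) in KO germinal center cells, where 50.2% of all genes passed. A gene of this or the later lists can enter a test only through the group where it is high, so list counts are descriptions. Ptpn22, a phosphatase that restrains antigen receptor signaling, rose by 3.45 (SE 0.12, edgeR adjusted p = 2.09e-177), the adaptor Grap2 by 1.95 (SE 0.08, edgeR adjusted p = 8.05e-135), and the lymphocyte GTPases Gimap7 and Gimap3 by 1.32 (SE 0.09, edgeR adjusted p = 3.18e-45) and 1.20 (SE 0.05, edgeR adjusted p = 4.06e-138). Gimap3 counted 898 and 1084 in WT and 1812 and 1861 in KO germinal center libraries. The 3 that fell were Fyn, an Src family kinase, at -0.24, the adaptor Lcp2 at -0.27 and Sla2 at -0.22, singled out after their values were seen. In activated cells 6 of 22 rose, where 4.85% of all genes did. Between WT germinal center and WT activated cells 2 of 19 were higher and 15 lower, where 82.2% of all genes passed. Lcp2, the SLP-76 adaptor, was higher by 2.90 (SE 0.11, edgeR adjusted p = 1.81e-64), while Ptpn22 was lower by -4.13 (SE 0.10, edgeR adjusted p = 2.35e-92) and Grap2 by -3.73 (SE 0.06, edgeR adjusted p = 2.51e-120). Between KO cell types 3 of 20 were higher and 13 lower, where 78.7% of all genes passed. The shares passing in either direction were near those of all genes between cell types.

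Helper, follicular helper and regulatory genes gave 8 higher, 0 lower and 1 not passing of 9 tested (20 listed) in KO germinal center cells, where 25.1% of all genes were higher and 25.1% lower. Maf, a factor of follicular helper and other T cells, counted 5 and 1 in WT and 35 and 28 in KO germinal center libraries, a rise of 3.64 (SE 0.49, edgeR adjusted p = 1.27e-12). Maf met the count minimum in KO only, as did others of the 8, so that count is a description. Cxcr3, a chemokine receptor of type 1 helper cells, rose by 1.46 (SE 0.20, edgeR adjusted p = 4.97e-12), Zbtb7b, the CD4 lineage factor ThPOK, by 0.90 (SE 0.08, edgeR adjusted p = 5.78e-26), and the SLAM receptor Slamf6 by 0.24 (SE 0.04, edgeR adjusted p = 4.34e-07). In activated cells 2 of 9 rose, against 4.85% of all genes. Between WT cell types 1 of 10 was higher in germinal center cells and 8 were lower, Maf by -4.65 (SE 0.40, edgeR adjusted p = 2.1e-23), and between KO cell types 4 of 11 were higher and 6 lower, where 82.2% and 78.7% of all genes passed. Further NK and cytotoxic genes had 4 of 20 tested in germinal center cells, of which Cd244a, the 2B4 receptor, rose by 1.18 (SE 0.39, edgeR adjusted p = 0.00631) and 3 did not pass, and 10 of the 20 were at 0 in both WT germinal center libraries. In activated cells 1 of 5 rose, Il18rap by 1.47 (SE 0.16, edgeR adjusted p = 6.17e-07), against 4.85% of all genes. Between WT cell types 2 of 6 were higher in germinal center cells and 4 lower. Between KO cell types 1 of 6 was higher and 4 lower.

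Markers of other cell types moved in the same groups. Of all genes tested, 25.1% were higher and 25.1% lower in KO germinal center cells, and 4.85% were higher and 1.42% lower in KO activated cells. Genes of these lists too can enter a test only through the group where they are high, so the counts below are descriptions. Monocyte, macrophage and dendritic cell genes were higher in KO for 10 of 12 tested (16 listed) in germinal center cells, summing to 103 to 109 CPM in WT and 206 to 216 CPM in KO, and for 5 of 13 in activated cells, summing to 880 to 924 CPM in WT and 1376 to 1499 CPM in KO. Cd300e and Siglech of that list were at 0 in both WT germinal center libraries. Erythroid and platelet genes were higher in KO for 7 of 8 tested (12 listed) in germinal center cells, at 10.3 to 13.6 CPM in WT and 70.3 to 84.2 CPM in KO, with Pf4 and Ppbp at 0 in both groups and Gp9 at 0 in KO. In activated cells 7 of 9 were higher, at 666 to 676 CPM in WT and 969 to 1160 CPM in KO. Neutrophil genes summed to 0 to 0.371 CPM in WT and 1.90 to 2.08 CPM in KO germinal center cells, with 8 of 9 at 0 in both WT libraries (all but Camp) and Mpo, Elane, Camp and Retnlg at 0 in KO, and none of the 9 reached the count filter. In activated cells all 9 were higher in KO, at 516 to 588 CPM in WT and 1871 to 2277 CPM in KO. B cell defining genes were higher in KO germinal center cells for 9 of 10, germinal center genes were lower for 10 of 10, and plasma cell genes were higher for 3 of 4 tested (5 listed). The part of these cell type and state markers in the differences of T and NK lineage transcripts was not tested.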

How the data were processed

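Each library has 1 deposited table of raw counts by gene, which the authors made. The submitters' processing notes name the trimmer Trimmomatic, the package DESeq2 and the genome build mm10. No label or header names an aligner, a counting program or a strand setting. Of the 55401 identifiers, 55141 are in GENCODE M21 (GRCm38), which gave coordinates and exon lengths. Summary lines at the end of each table were left out, of which reads on no feature made up 47.2% to 53.9% of a table's total.

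Groups came from sample titles. Each comparison was fitted on all genes with edgeR 4.0.16 (R 4.3.3; TMM, filterByExpr, quasi-likelihood F test, Benjamini-Hochberg adjustment), from the 4 libraries of the groups compared, or all 8 for the difference of KO effects. The script was tested on simulated data. CPM values use 1 TMM scaling over the 8 libraries. At 1 CPM a gene rests on about 10 counts, where counting error dominates. The floor is 3 counts over a group. Alternatives were DESeq2 size factors, no filter on low counts, DESeq2 1.42.0, a replicate block, 1 fit over all libraries, and leaving out each library.

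The members and lists were chosen with earlier results of these data known. Library values are given for members that passed in any comparison and for the receptor and coreceptor genes, Foxp3, Bcl11b and Ncr1, and further lists name up to 4 genes with the lowest p per comparison. Of the further T cell list, 3 symbols matched no identifier. A few marker genes of the lists are not reported here by name.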

Additional observations from a re-analysis of the deposited data

Results flagged for a closer look

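For 9 of 26 tested members the KO effect in germinal center cells differed from that in activated cells by edgeR's test of the difference itself (log2, germinal center minus activated). In either direction, 31.2% of 14992 genes passed the same test, 17.5% higher and 13.8% lower. All 9 members were on the higher side. Members were tested only where they reached the count filter, so the count of 9 describes the tested members. Cd4 differed by 3.36, Prf1 by 3.25 and Cd2 by 0.81, and these 3 calls were kept under the 12 alternatives tried, as was that of Cd3e, whose fitted value of 5.93 depends on the prior count because its WT germinal center libraries held no count. Trbc2 differed by 2.96 (adjusted p = 0.00929, range over alternatives 0.00604 to 0.104) and was lost without KO germinal center replicate 1 (0.0655), without WT germinal center replicate 1 (0.104) and by DESeq2 (0.0578). Tcf7 differed by 1.39 (adjusted p = 0.00662, range 0.00368 to 0.0902), lost without KO germinal center replicate 2 (0.0504) and without WT germinal center replicate 2 (0.0902). Il7r differed by 2.56 (adjusted p = 0.00765, range 0.00449 to 0.144), lost without the same 2 libraries (0.144 and 0.0877). Lef1 differed by 1.77 (adjusted p = 0.0312, range 0.00491 to 0.549), lost without KO germinal center replicate 1 (0.549), without WT germinal center replicate 1 (0.0524) or 2 (0.199), with no count filter (0.0613) and by DESeq2 (0.0749). Cd3g differed by 2.07 (adjusted p = 0.0475, range 0.0407 to 0.293) and was lost under 9 of 12 alternatives, among them without KO germinal center replicate 2 (0.249), without WT germinal center replicate 2 (0.293) and without each of the 4 activated libraries (0.0684 to 0.0894).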

How the results depend on the processing

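Over 1064 recomputed member values, 995 kept their side of the threshold, 51 lost a call, 18 gained 1 and 0 reversed a call. Members higher in KO germinal center cells numbered 8, against 18 with no low-count filter and 17 in 1 fit over all 8 libraries, where scarce members are tested. With no filter, the added members were the 3 CD3 chains and 7 others. By edgeR adjusted p these were Trbc2 (0.00304), Lef1 (0.0124), Il7r (0.022), Trbc1 (0.0223), Sh2d1a (0.0319), Bcl11b (0.0319) and Cd28 (0.0478). Members lower there numbered 1, against 2 with the replicate block and 1 to 2 when 1 library was left out. Members higher in KO activated cells numbered 2, against 0 with no filter (10 at an unadjusted p under 0.05), 0 by DESeq2 (4 at an unadjusted p under 0.05), 6 with the replicate block and 0 to 3 when 1 library was left out (0 without WT replicate 1, 1 without KO replicate 1). Members lower in WT germinal center than in WT activated cells numbered 14, against 24 with no filter. For the difference of KO effects, the 9 members with a larger effect became 5 to 9 when 1 library was left out (5 without WT germinal center replicate 2), and the 0 with a smaller effect became 1 with DESeq2 size factors and 0 to 2 when 1 library was left out (2 without activated KO replicate 2). Counts over all genes moved by more than 1.5 times for germinal center KO (6698, DESeq2 4342), activated KO (885, no filter 465, DESeq2 349, replicate block 1388) and the difference (4685, DESeq2 3069). Same-numbered libraries did not deviate together (correlations -0.030 to 0.010). Whether they share a mouse or a day is not given by the labels, and a low correlation cannot decide it. The cause of these shifts was not tested, apart from the fewer or more genes tested that the filter itself sets. Depth limits the CD3 chains, constant genes and NK genes most, since many rest on fewer than 10 counts in a library.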

Other observations

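Il21, the cytokine that follicular helper T cells give to germinal center B cells, was singled out after its values were seen. It counted 0 and 1 in WT germinal center libraries, 6 and 5 in KO germinal center libraries, and 0 in all 4 activated libraries. The ratio of KO to WT in germinal center cells was 13.5 (exact 95% counting interval 1.96 to 580, counting error only), and it did not reach the count filter in any comparison. Il17a was at 0 in all 8 libraries, and Il2 was at 0 in all 4 germinal center libraries. Also singled out by value, Il4 of the same list counted 0 and 5 in WT and 1 and 0 in KO germinal center libraries. Ascl2 counted 0 and 2 in WT and 0 and 1 in KO, and Cd40lg of the further T cell list 4 and 7 in WT and 4 and 4 in KO. Of the 9 genes of the Il21 list tested in germinal center cells, 8 were higher in KO, where 25.1% of all genes tested were higher. Maf and others of the 8 met the count minimum in KO only, so that count is a description.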
